A study of Mus musculus with 14 samples.

Results

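Brain tissue and vastus lateralis muscle of mice that lack the imprinting center of the Prader-Willi domain (PWS-IC del) were compared with the same tissues of wild-type littermates for 8 transcription regulators that carry circadian clock signals to other genes: Dbp, Tef, Hlf, Nfil3, Ciart, Bhlhe40, Bhlhe41 and Rora. The members were all probe sets that the platform annotation gives to a single symbol among these 8, which are 21 of the 45101 probe sets on the array. All 8 genes, of 18193 with a single-symbol probe set, were covered, Rora by 9 probe sets, Tef by 3, Dbp, Hlf and Bhlhe41 by 2 each, and Nfil3, Ciart and Bhlhe40 by 1 each. None of the probe sets annotated to several genes held a member. RNA was measured on 1-colour Affymetrix arrays (Mouse Genome 430 2.0), 1 for each sample, with 4 wild-type (wild-type brain, wild-type muscle) and 3 mutant arrays (PWS-IC del brain, PWS-IC del muscle) in each tissue. All mice, controls included, were F1 hybrids of FVB and B6. Wild-type mice are described as age-matched, but neither the age nor the time of day at which tissue was taken is given in the sources used here. The samples are called biological replicas, and it is not said whether a brain and a muscle sample came from 1 animal. Levels are log2(intensity + 16), a scale whose lowest possible value is 4, and a difference is PWS-IC del minus wild type unless stated.

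In the circadian clock, the activators encoded by Arntl and Clock bind E-boxes in DNA and switch on genes for their own repressors, which closes a loop that runs with the day. Dbp, Tef and Hlf encode the related activators of the PAR bZIP family, which bind D-box elements, and Nfil3 encodes a repressor that competes for the same element. Ciart, Bhlhe40 and Bhlhe41 encode repressors that act against the E-box activators, and Rora encodes a nuclear receptor that activates Arntl through an element it shares with the repressors Nr1d1 and Nr1d2. Dbp is among the transcripts with the strongest daily rhythm in many tissues.

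The promoters of the members are shown first because the loop reaches them through such elements. RefSeq promoter windows (GRCm38.p6, 250 bases before to 50 after the start site) were matched for 7 of the 8 genes by symbol, in 8 windows, since Tef has 2. Bhlhe40 had no entry. The windows were searched on both strands for the E-box CACGTG, for the D-boxes TTATGTAA, TTATGCAA and TTACGTAA, and for the receptor element TAGGTCA. None of these motifs overlaps another in the member windows. The Ciart window held 3 E-boxes, in capitals below, at 116, 58 and 44 bases before the start site. An E-box was present in 7.15% of the 32851 windows in the table, and 3 or more in 0.0883%. The Ciart stretch is the 250 bases before the start, minus strand, chr3:95882229-95882478. The Dbp stretch, chr7:45704997-45705246 on the plus strand, is shown beside it because Dbp is the other gene with a wide gap between genotypes in muscle, and it held none of the motifs.
Ciart: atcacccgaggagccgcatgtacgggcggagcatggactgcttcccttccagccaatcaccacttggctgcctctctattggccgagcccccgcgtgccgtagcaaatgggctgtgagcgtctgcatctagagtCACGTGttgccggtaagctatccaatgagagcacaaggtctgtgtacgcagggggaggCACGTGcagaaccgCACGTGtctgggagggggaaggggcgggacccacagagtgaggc
Dbp: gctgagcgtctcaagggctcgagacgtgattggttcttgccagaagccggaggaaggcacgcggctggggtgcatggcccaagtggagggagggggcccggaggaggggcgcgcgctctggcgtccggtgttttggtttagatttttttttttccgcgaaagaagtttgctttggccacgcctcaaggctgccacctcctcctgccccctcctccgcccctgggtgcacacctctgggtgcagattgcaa

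Single motifs were found in 4 further windows, of which 40 bases each are given with the motif in capitals. Both Tef windows held 1 E-box, at 127 and 138 bases before their start sites (chr15:81802529-81802568 and chr15:81811259-81811298, plus strand). The Bhlhe41 window held 1 at 153 bases (chr6:145865551-145865590, minus strand). The Nfil3 window held the receptor element in its reverse form, TGACCTA, 12 bases before the start (chr13:52981040-52981079, minus strand), an element present in 2.61% of all windows. The D-boxes, present in 1.78% of all windows, were in none of the 8, and the Hlf and Rora windows held none of the motifs. These are matches of letters in a short window and say nothing about binding.
Tef first window: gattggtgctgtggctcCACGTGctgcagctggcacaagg
Tef second window: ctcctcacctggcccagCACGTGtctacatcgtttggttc
Bhlhe41: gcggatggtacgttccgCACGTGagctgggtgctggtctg
Nfil3: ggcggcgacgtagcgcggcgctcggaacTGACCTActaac

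Median intensity was 142.1 to 170.1 in brain arrays and 88.8 to 96.4 in muscle arrays. Snrpn, a gene of the imprinted domain, read 10.29 to 10.64 in wild-type and 5.03 to 6.48 in PWS-IC del brain, so that each brain array matched its label. Several arrays stood apart. On the first principal component of the brain arrays, wild-type 1 and 2 lay at -93.2 and -35 against 12.4 to 37.1. The mean level of 5 cerebellar markers was 12.29 in PWS-IC del brain 2 and 9.79 in wild-type brain 3 against 7.69 to 8.02 in the other brain arrays, although the label of each is whole brain. The mean of 5 skeletal muscle markers was 10.59 in wild-type brain 1 and 9.88 in wild-type brain 3 against 6.71 to 7.23. The mean of 4 pituitary markers was 9.22 in wild-type brain 3 against 6.09 to 6.56 in the other brain arrays. That of 4 choroid plexus markers ran from 7.40 in wild-type brain 1 to 10.41 in PWS-IC del brain 3. For 4 striatal markers it ran from 9.35 in wild-type brain 3 to 11.54 in wild-type brain 1. On the first principal component of the muscle arrays, PWS-IC del 1 and 2 lay at 35.8 and 36.9 against -33.6 to 10.8. Among muscle arrays, wild-type 2 was low in 6 slow-fibre markers (9.08 against 10.56 to 12.07) and high in 4 neuronal markers (8.06 against 5.61 to 7.22). The mean of 3 fat cell markers ran from 9.85 in PWS-IC del muscle 3 to 11.88 in PWS-IC del muscle 2 and 11.96 in wild-type muscle 2. The labelled tissues were otherwise borne out, with neuronal markers at 13.02 to 13.18 in every brain array and skeletal muscle markers at 13.75 to 13.82 in every muscle array.

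The first question was whether the clock output factors differ between PWS-IC del and wild-type muscle. In these arrays Dbp, Ciart and Bhlhe40 read lower and Nfil3 read higher in every mutant than in every control, by 0.94, 0.76, 0.48 and 0.57 log2 units on average. None of the 21 probe sets passed the test over the whole array, in which limma's moderated test with Benjamini-Hochberg adjustment called 29 of 45037 probe sets, or 0.0644%, at an adjusted p under 0.05. At an unadjusted p under 0.05 there were 5 of 21, beside 10.3% of all probe sets. The groups did not overlap for 7 of the 21, with the mutants lower for 6 (background 6.06%) and higher for 1 (background 4.59%). The 6 include both probe sets of Dbp and 2 of Tef, so they stand for 4 genes. The difference was below 0 for 16 of 21, beside 51% of all probe sets, with a median of -0.11 beside -0.0043. Probe sets of 1 gene are not separate observations, and by the brightest probe set of each gene 6 of 8 were below 0. The members were also chosen with earlier results of these data known, so the background shares are no independent test of them.

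Among the D-box activators, Dbp showed the widest gap. Its brighter probe set, whose suffix marks probes shared between transcripts, read 11.27, 11.33, 11.03 and 11.07 in wild-type muscle and 9.90, 10.63 and 10.18 in PWS-IC del muscle. The controls lay close together (11.18 ± 0.15, SD, n = 4), whereas the mutants, all below them, were spread more widely (10.24 ± 0.37, SD, n = 3). The difference was -0.94 ± 0.17 (SE), with a 95% interval of -1.32 to -0.56 and an adjusted p of 0.146, and it corresponds to a 1.92-fold lower level. The other Dbp probe set gave -0.83 ± 0.17 (adjusted p = 0.188), with 10.81 to 11.10 in controls and 9.82 to 10.55 in mutants. Both probe sets thus placed PWS-IC del 1 lowest and PWS-IC del 2 nearest to the controls.

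Tef, another activator of the family, differed little. It read 11.46, 11.44, 11.43 and 11.37 in wild-type and 11.28, 11.33 and 11.22 in mutant muscle, a difference of -0.15 ± 0.08 (SE; interval -0.34 to 0.04, adjusted p = 0.581). The groups were narrowly apart, with the lowest control at 11.37 and the highest mutant at 11.33. Of the other Tef probe sets, the dim 1438033_at differed by -0.26, also without overlap, and 1450184_s_at by -0.09 with overlap. Hlf, the remaining member of the family, read 8.03 to 8.20 in controls and 7.81, 8.19 and 7.71 in mutants. PWS-IC del 2 was within the controls, and the difference was -0.20 ± 0.13 (SE; interval -0.48 to 0.09, adjusted p = 0.628).

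Nfil3, the repressor at the same element, was the member with mutants above controls. It read 8.95, 8.63, 8.74 and 8.60 in wild-type muscle and 9.88, 8.95 and 9.07 in PWS-IC del muscle. The highest control and the lowest mutant were both at 8.95 at this rounding, and PWS-IC del 1 stood well above the other mutants. The difference of 0.57 ± 0.21 (SE; interval 0.09 to 1.05, adjusted p = 0.41) was 0.28 without PWS-IC del 1.

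Of the E-box repressors, Ciart read 7.19, 7.67, 7.43 and 7.52 in wild-type and 6.62, 6.82 and 6.65 in PWS-IC del muscle. The mutants lay close together (6.69 ± 0.11, SD, n = 3) and below all controls (7.45 ± 0.20, SD, n = 4). The difference was -0.76 ± 0.13 (SE; interval -1.04 to -0.47), a 1.69-fold lower level, and its adjusted p of 0.117 was the smallest among the members. Bhlhe40 read 11.24, 11.10, 11.17 and 11.37 in controls and 10.80, 10.92 and 10.50 in mutants, a difference of -0.48 ± 0.12 (SE; interval -0.76 to -0.20, adjusted p = 0.268). For its paralog Bhlhe41 the groups overlapped, since PWS-IC del 3 at 7.35 lay among the controls at 7.26 to 7.49 while the other mutants read 6.94 and 7.01. That difference was -0.26 ± 0.12 (SE; adjusted p = 0.509), and the dim Bhlhe41 probe set 1457096_at gave -0.11.

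Rora, the receptor that activates Arntl, showed no such gap. Its brightest probe set read 11.96, 11.68, 11.75 and 11.72 in wild-type and 11.97, 11.72 and 11.79 in mutant muscle, a difference of 0.05 with an interval of -0.19 to 0.30. The 9 Rora probe sets ranged from -0.35 to 0.23, all with overlapping groups and adjusted p of 0.551 or more.

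**Figure D1:**
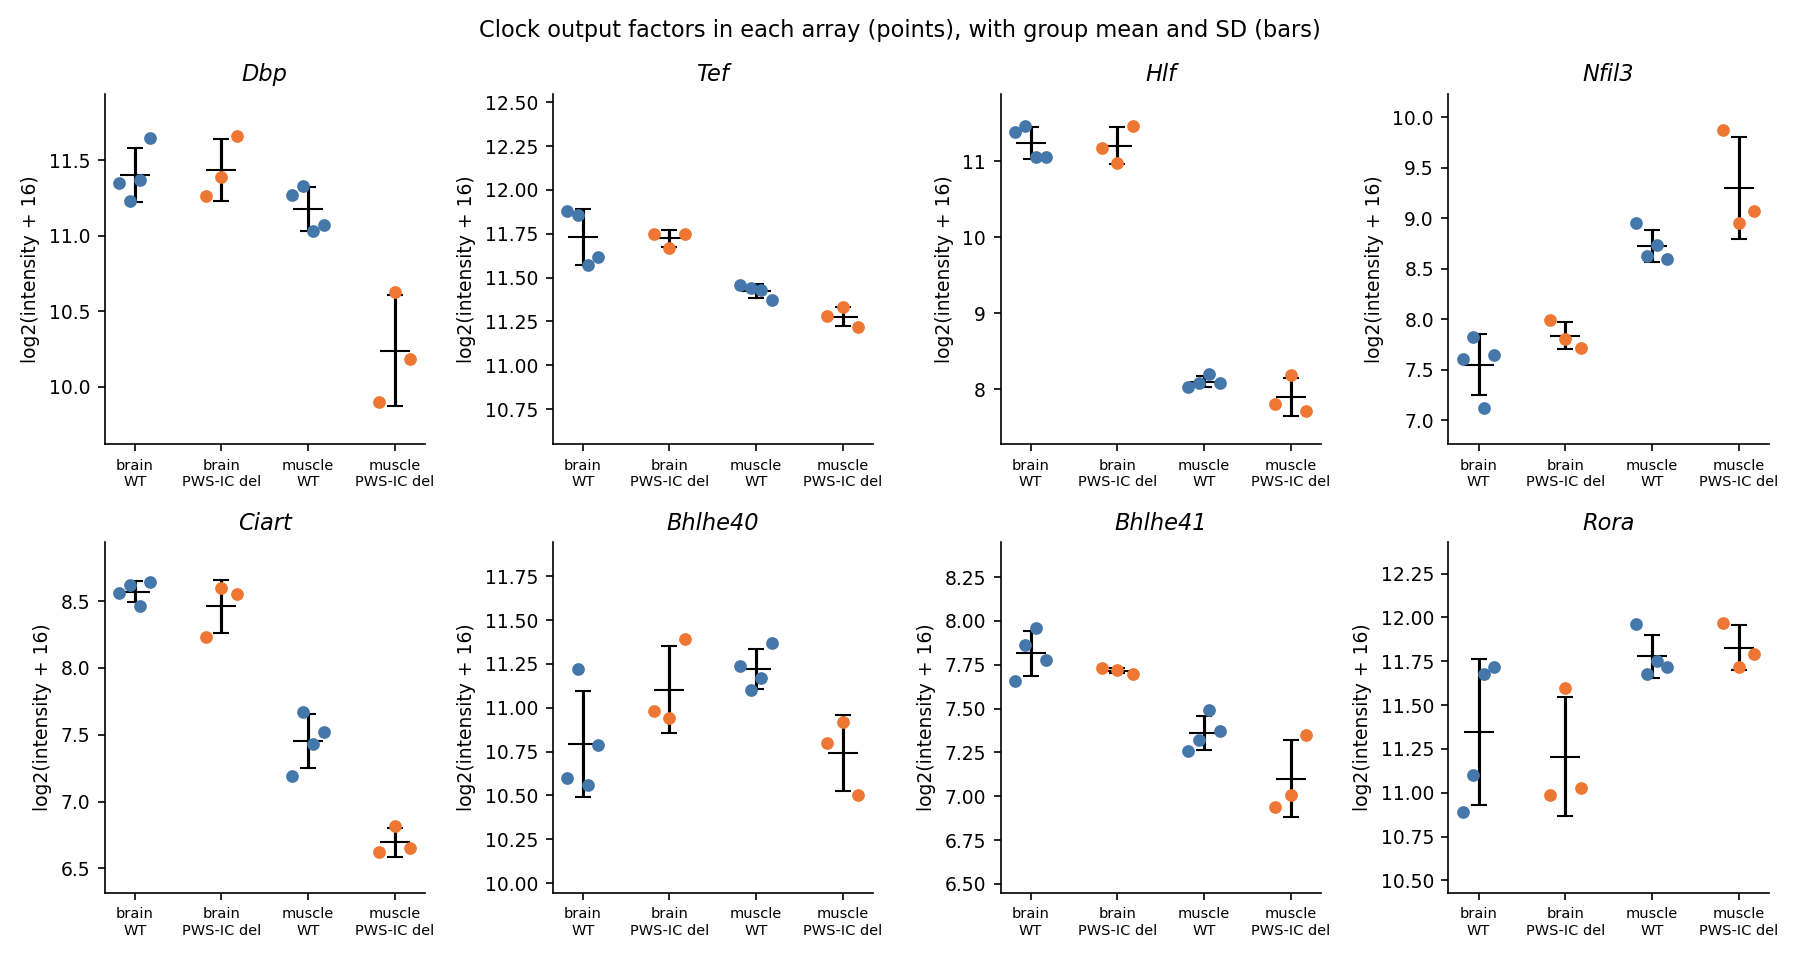
Level of the brightest probe set of each of the 8 genes, as log2(intensity + 16), in every array (points) of the 4 groups, with group mean and SD (bars); each panel has its own axis range. Mutant muscle lies below wild-type muscle without overlap for Dbp, Tef, Ciart and Bhlhe40, while brain groups overlap for all 8 genes.

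**Figure D2:**
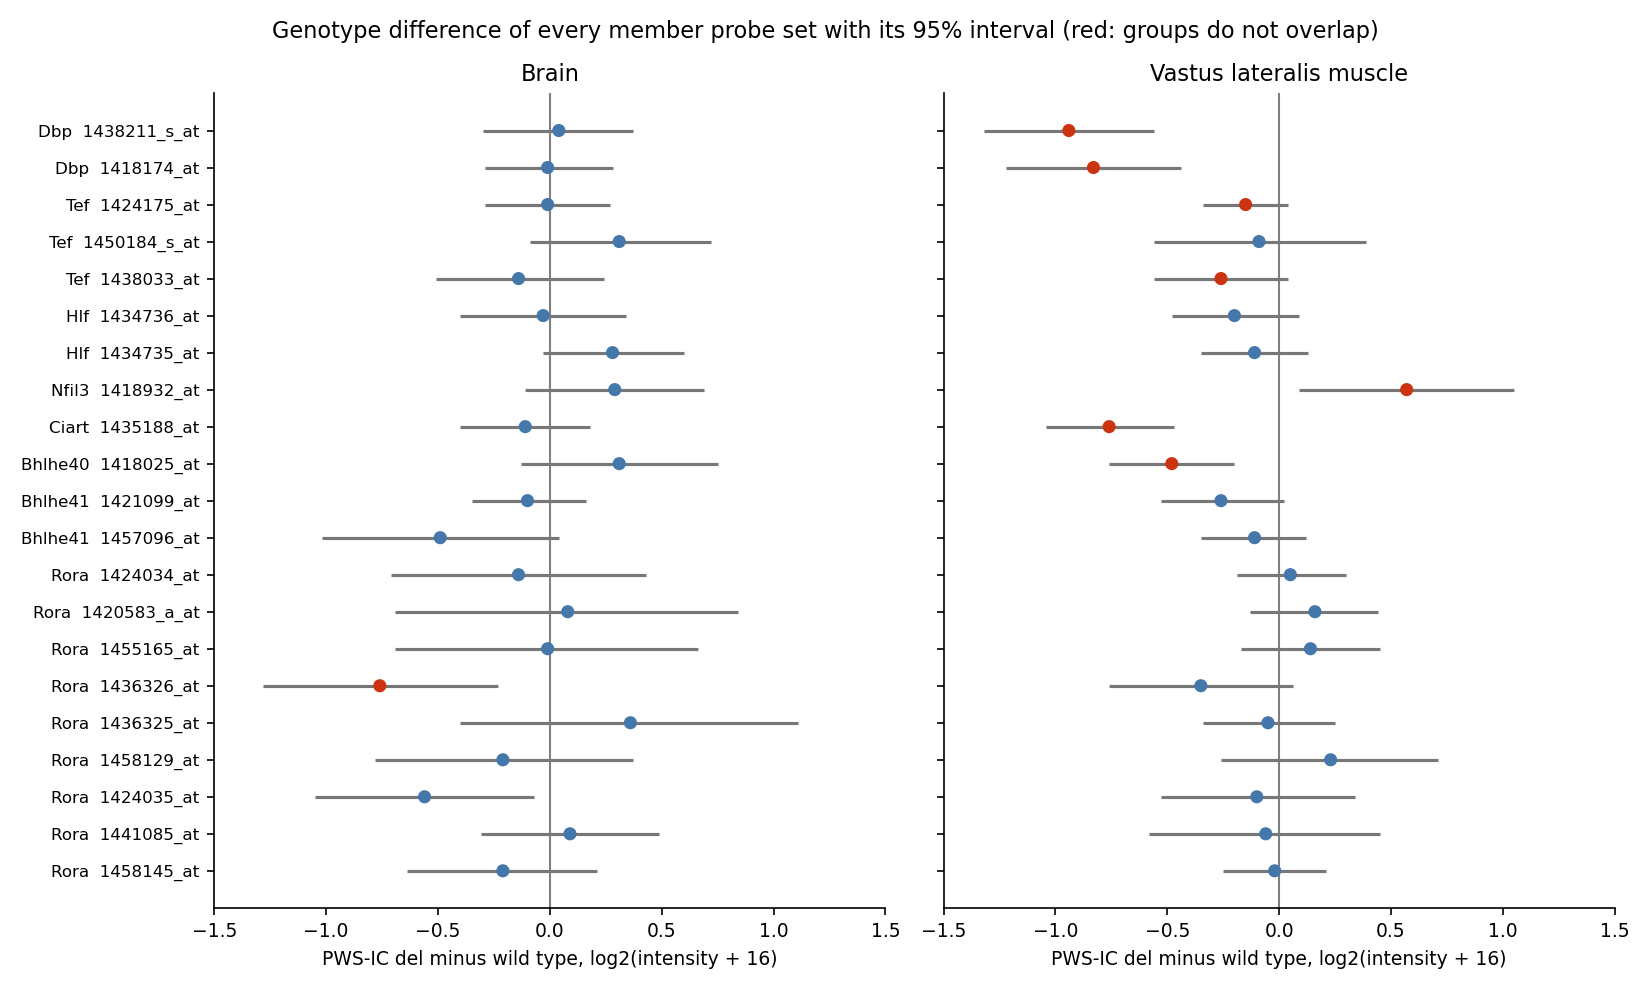
Difference between PWS-IC del and wild type on the log2(intensity + 16) scale with its 95% interval for each of the 21 probe sets, in brain (left) and muscle (right); red points mark groups that do not overlap. In muscle 7 probe sets are red and in brain 1, a Rora probe set at -0.76, and no probe set passed the test in either tissue.

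The direction of the muscle values for Dbp, Ciart, Bhlhe40 and Nfil3 was kept under all 17 other settings or left-out arrays. Dbp ranged from -1.14 to -0.69 and passed under 1 of them (an intensity trend, adjusted p = 0.0472). Ciart ranged from -0.85 to -0.56 and passed under 2 (array weights, 0.0457, and a fit of all 14 arrays, 0.0402). Without wild-type 2, the array with the low slow-fibre and high neuronal markers, Dbp was at -0.89 and Ciart at -0.68. Of 6 endothelial markers, 0 passed in muscle. All 6 were lower on average in mutant muscle (median -0.38), 3 of them (Flt1, Vwf and Pecam1) without overlap beside 6.06% of all probe sets, and their mean level was 8.84 to 9.20 in controls and 8.38 to 8.89 in mutants. In brain, too, 0 passed and all 6 were lower on average (median -0.35), with Flt1 and Kdr without overlap beside 4.03% and means of 7.39 to 7.96 in controls and 7.17 to 7.48 in mutants. The 5 macrophage markers had means of 9.22 to 9.48 in controls and 9.38 to 9.76 in mutants. The part of these cells in the values of the members was not tested, and in bulk tissue fewer cells of a type and less RNA per cell cannot be told apart.

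Other genes of the clock were then examined in muscle. None of the 10 measured genes of the core loop passed the test. The differences were below 0 for 5 and above 0 for 5, with a median of -0.04, and the groups did not overlap for 4 lower genes (6.06% of all probe sets) and 1 higher gene (4.59%). Arntl, the E-box activator itself, read 8.90, 8.37, 8.84 and 8.66 in controls and 10.06, 9.03 and 9.37 in mutants. All mutants exceeded all controls, and the difference was 0.80 ± 0.23 (SE, adjusted p = 0.324), or 0.51 without PWS-IC del 1. The repressor gene Per2 read 8.37 to 8.62 in controls and 8.05 to 8.18 in mutants (-0.40, adjusted p = 0.236), and its relative Per1 read 8.99 to 9.11 and 8.34 to 8.84 (-0.45, adjusted p = 0.303). Nr1d1, the repressor of Arntl, was at 8.80 to 9.20 in controls and 8.23 to 8.71 in mutants (-0.57, adjusted p = 0.273), and Nr1d2 differed by only -0.10. Overlapping groups were seen for Clock (0.20), Npas2, Per3, Cry1 and Cry2.

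PWS-IC del 1, with the highest Arntl and Nfil3, also had the lowest Dbp, Ciart and Per1 of the mutants, but Bhlhe40 and Nr1d1 were lowest in PWS-IC del 3. Of 8 measured clock-driven output genes outside the loop, 0 passed, and their median was -0.08. Usp2, which encodes a deubiquitinating enzyme, read 12.14 to 12.36 in controls and 11.96 to 12.01 in mutants (-0.24, adjusted p = 0.429), and Klf15, which encodes a metabolic regulator, differed by 0.29 (adjusted p = 0.433). Tspan4 was at -0.29 and Alas1, the first enzyme of heme synthesis, at 0.15, both with overlap. Among 4 measured genes of clock kinases and protein turnover (median -0.07), 0 passed, and Btrc, a subunit of a ubiquitin ligase that acts on period proteins, had the smallest p (-0.48, adjusted p = 0.188). Csnk1d, Fbxl21 and Csnk1e were at -0.10, 0.09 and -0.03.

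**Figure D3:**
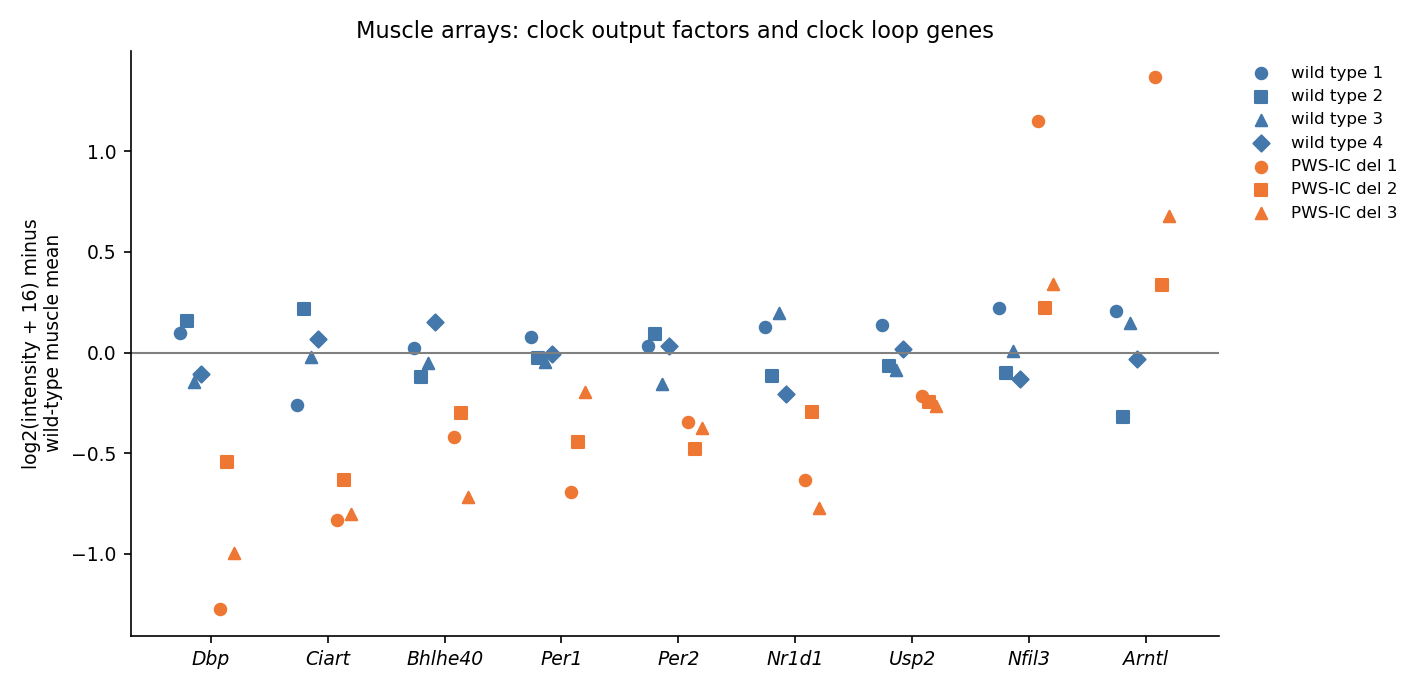
Level of 9 clock genes in each muscle array, as log2(intensity + 16) minus the mean of the 4 wild-type arrays; colour gives the genotype and the marker shape the replicate number. The mutants lie below all controls for Dbp, Ciart, Bhlhe40, Per1, Per2, Nr1d1 and Usp2 and above them for Arntl and, narrowly, Nfil3, and none of the 9 differences passed the test.

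Several of these genes also respond to stress hormones and to sudden stimuli, so lists for both were read in the same muscle arrays. Of 8 glucocorticoid-responsive genes, 0 passed, with 4 above and 4 below 0 and a median of 0.05. Mt2, a metallothionein, was at 0.47 without overlap (adjusted p = 0.242), Mt1 at 0.41, Fkbp5, a chaperone induced by the hormone, at 0.40, and the kinase gene Sgk1 at -0.33 without overlap (adjusted p = 0.355). Of 11 immediate early genes, 0 passed, and 10 were below 0, with a median of -0.27 beside -0.0043 over all probe sets. Dusp1, a phosphatase gene, read 11.47 to 11.84 in controls and 10.55 to 11.06 in mutants, a difference of -0.78 (adjusted p = 0.146) that passed under 2 of 17 other settings or left-out arrays. Egr1 was at -0.47, Npas4 at -0.40 near the floor of the scale, and Junb at -0.27. The part of stimulus or hormone responses in the values of the members was not tested.

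The same question was asked of brain. None of the 21 probe sets passed, against 28 of 45037 (0.0622%) over the array, and all 28 of those were lower in mutants. At an unadjusted p under 0.05 there were 2 of 21, both of Rora, beside 6.39% of all probe sets, and the lowest adjusted p was 0.644. The difference was below 0 for 13 of 21, beside 51.4% of all probe sets, and for 5 of 8 genes by their brightest probe set. The median of the members was -0.01, beside -0.0087 over all probe sets. The groups did not overlap for 1 probe set, lower in mutants, beside 4.03% of all.

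Dbp read 11.35, 11.23, 11.37 and 11.65 in wild-type brain and 11.26, 11.39 and 11.66 in PWS-IC del brain. The 2 sets of values cover the same range, and the difference was 0.04 with an interval of -0.30 to 0.37. Ciart read 8.56, 8.62, 8.46 and 8.64 in controls and 8.23, 8.60 and 8.55 in mutants, a difference of -0.11 with an interval of -0.40 to 0.18. Only PWS-IC del 1 lay below the controls. Tef was at -0.01 (interval -0.29 to 0.27), Hlf at -0.03 (-0.40 to 0.34) and Bhlhe41 at -0.10 (-0.35 to 0.16). Of their other probe sets, Dbp 1418174_at was at -0.01 (adjusted p = 0.981) and Tef 1438033_at at -0.14 (adjusted p = 0.741). The rest lay farther from 0, with overlapping groups and an adjusted p of 0.644 each. Tef 1450184_s_at was at 0.31 (-0.09 to 0.72), Hlf 1434735_at at 0.28 (-0.03 to 0.60) and the dim Bhlhe41 1457096_at at -0.49 (-1.02 to 0.04).

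Nfil3 and Bhlhe40 were above 0 in brain with wider spread. Nfil3 read 7.61, 7.83, 7.12 and 7.65 in controls and 7.99, 7.81 and 7.72 in mutants, a difference of 0.29 ± 0.18 (SE; interval -0.11 to 0.69). Bhlhe40 read 10.60, 11.22, 10.56 and 10.79 in controls and 10.98, 10.94 and 11.39 in mutants, a difference of 0.31 ± 0.19 (SE; interval -0.13 to 0.75). In both genes wild-type 2 lay within the range of the mutants.

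The probe sets of Rora also disagreed in brain. Its brightest probe set read 10.89, 11.10, 11.68 and 11.72 in wild-type and 10.99, 11.60 and 11.03 in PWS-IC del brain. The high arrays were wild-type 3, wild-type 4 and PWS-IC del 2, so each genotype held high and low arrays, and the difference was -0.14 with an interval of -0.71 to 0.43. The probe sets 1420583_a_at, 1455165_at, 1436325_at and 1458129_at were also highest in these 3 arrays. In contrast, 1436326_at read 10.50, 10.50, 10.83 and 10.87 in controls and 10.33, 9.36 and 10.05 in mutants, with PWS-IC del 2 the lowest array of all. Its difference was -0.76 ± 0.23 (SE; interval -1.28 to -0.23, adjusted p = 0.644). A further probe set, 1424035_at, was lowest in PWS-IC del 2 as well (6.74 against 7.08 to 7.92) and differed by -0.56.

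PWS-IC del brain 2 is the array with the highest cerebellar markers, where Pcp2, a gene of Purkinje cells, read 16.76 against 13.03 in wild-type 3 and 8.19 to 8.79 in the others. All 5 cerebellar markers were higher on average in mutant brain, with means of 7.82 to 9.79 in controls and 7.69 to 12.29 in mutants. Rorb, a related receptor gene, read 9.19 in the same array and 10.02 to 10.58 in the other brain arrays. Without PWS-IC del 2, the difference of Rora 1436326_at was -0.48, and without that array and wild-type 3 it was -0.43. With wild-type 1 and 2 left out it was -0.94. The part of the cerebellar share in the Rora values was not tested.

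**Figure D4:**
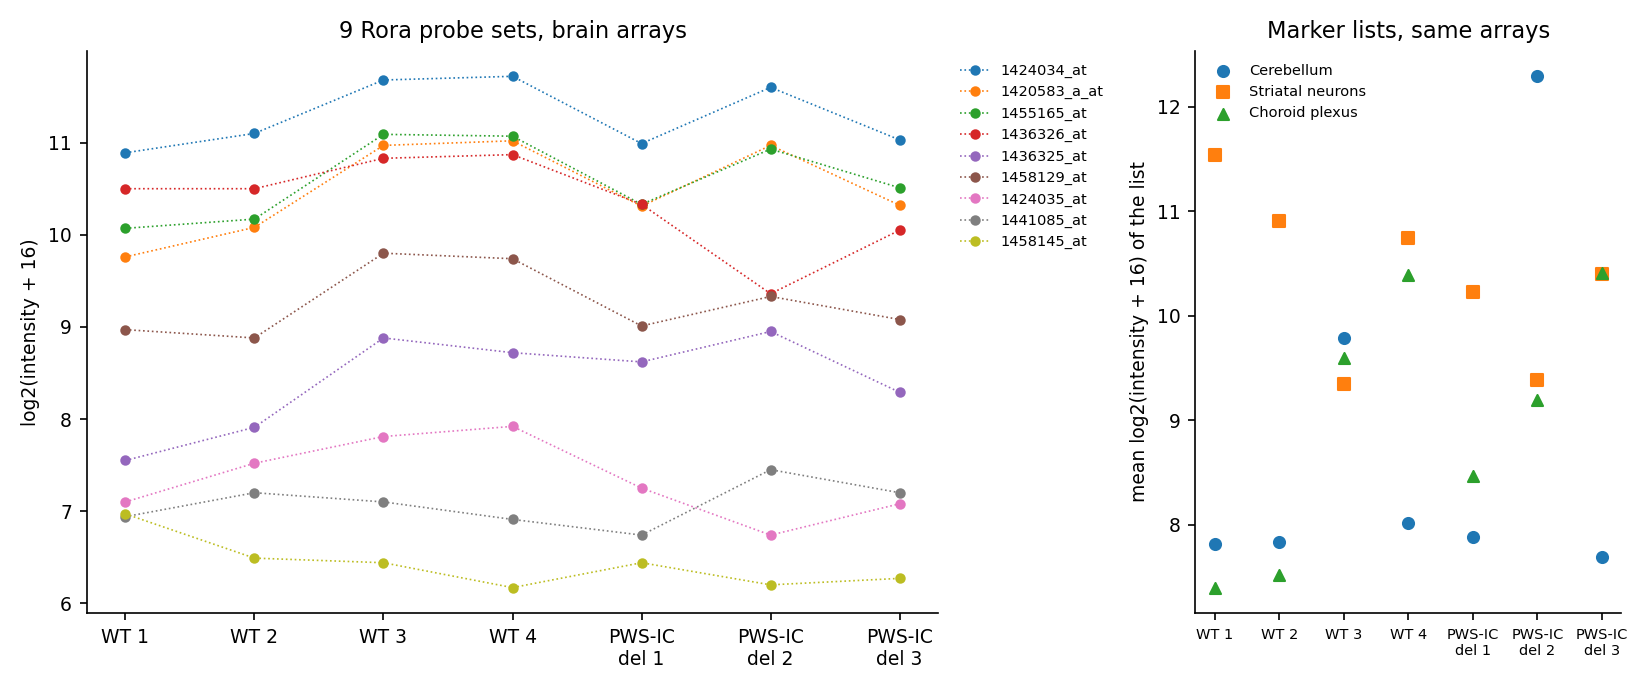
Left, level of the 9 Rora probe sets, as log2(intensity + 16), in each brain array, with dotted lines that join values of a probe set and imply no order of arrays. Right, mean level of cerebellar, striatal and choroid plexus markers in the same arrays; PWS-IC del 2 has the highest cerebellar mean, 12.29, and the lowest 1436326_at, 9.36.

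Clock loop genes in brain gave 0 calls among 10, with 7 above and 3 below 0 and a median of 0.10. Cry1, a repressor of the loop, was at 0.48 and Clock at 0.30, both with an adjusted p of 0.644. Arntl was at 0.19 and Per2 at -0.33. The other lists also gave 0 calls in brain. They were 8 output genes (7 above 0, median 0.14), 4 genes of kinases and turnover (2 above 0, median 0.02), 8 glucocorticoid-responsive genes (5 above 0, median 0.15), 11 immediate early genes (10 above 0, median 0.18) and Rorb (-0.24, or 0.18 without PWS-IC del 2). Zbtb16, a zinc-finger gene that the hormone induces, was at 0.54 (adjusted p = 0.644).

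Whether the genotype difference itself differs between tissues was tested as an interaction over all 14 arrays, with brain minus muscle as the direction. This fit shares a residual spread between tissues, although genotype was fitted within each tissue because their spreads differ. It also treats all arrays as independent. None of the 21 members passed, against 0.0644% of all probe sets. At an unadjusted p under 0.05 there were 5 of 21, beside 5.49% of all. Dbp gave 0.98 ± 0.23 (SE; interval 0.48 to 1.48, adjusted p = 0.492) and its other probe set 0.82 (adjusted p = 0.572). Bhlhe40 gave 0.79 (interval 0.28 to 1.30, adjusted p = 0.731), Ciart 0.65 (interval 0.26 to 1.03, adjusted p = 0.593) and Hlf 1434735_at 0.39 (adjusted p = 0.906). The interval of Nfil3, at -0.28, ran from -0.91 to 0.35. The tissues were thus not shown to differ in the genotype effect on any member. Among the list genes, Dusp1 gave 0.88 (adjusted p = 0.495), Btrc 0.71 (adjusted p = 0.721) and Zbtb16 0.64 (adjusted p = 0.846). Of the core loop, Nr1d1 gave 0.51 (adjusted p = 0.906), Cry1 0.42 (adjusted p = 0.91) and Arntl -0.61 (adjusted p = 0.916).

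Last, the wild-type arrays were compared between tissues, brain minus muscle, to describe where each factor is expressed. Hlf was the member with the widest difference, 8.81-fold higher in brain, and Nfil3 was 2.26-fold lower in brain. The test called 11 of 21 member probe sets, 8 higher and 3 lower in brain, beside 68.9% of all probe sets, 53.5% higher and 15.4% lower. Brain arrays were brighter as deposited, with a median difference of 0.43 over all probe sets, and the median of the members was 0.22. That median over all was -0.11 after quantile normalization and -0.24 after median centring. The share of calls that were higher in brain was 77.6% as deposited, 43% after quantile normalization and 37% after centring.

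Hlf read 11.38, 11.46, 11.05 and 11.06 in wild-type brain and 8.03, 8.09, 8.20 and 8.08 in wild-type muscle. The tissues were far apart, by 3.14 ± 0.12 (SE, adjusted p = 9.66e-09) and by 2.74 with its other probe set, and both were called under every scaling and every left-out array tried. Ciart was 1.12 higher in brain (adjusted p = 1.54e-05; 8.57 ± 0.08 against 7.45 ± 0.20, SD, n = 4 each), a call kept at 0.31 after quantile normalization. Nfil3 was at -1.18 (adjusted p = 8.66e-05; 7.55 ± 0.30 against 8.73 ± 0.16, SD, n = 4 each), lower in brain under every scaling.

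For the brightest probe sets of Dbp, Tef, Bhlhe41 and Bhlhe40, the direction depended on scaling or the call on single arrays. Dbp was at 11.40 ± 0.18 in brain and 11.18 ± 0.15 in muscle (SD, n = 4 each), a difference of 0.22 (adjusted p = 0.131) that was -0.45 after median centring. The other Dbp probe set, 1418174_at, was at -0.04 as deposited (adjusted p = 0.759). Over 19 alternatives it ranged from -0.72 to 0.04 and was called under 2, with a lowest adjusted p of 0.000466. Tef was 0.31 higher (adjusted p = 0.0251), but at -0.37 after centring, while its probe set 1438033_at was 1.47 higher and stayed called under both scalings. Tef 1450184_s_at was 0.95 higher (adjusted p = 0.00193) and stayed above 0 under all 19 alternatives (0.14 to 1.22), but was called under only 17 of them. Bhlhe41 was 0.46 higher (adjusted p = 0.00299) and at -0.29 after quantile normalization, and its dim probe set 1457096_at was at -0.25 (adjusted p = 0.283). Bhlhe40 was at -0.43 (adjusted p = 0.029), lower under every scaling, though its call was lost when any of 5 single arrays was left out (wild-type brain 1 or 3, or wild-type muscle 1, 3 or 4). The call of Tef 1424175_at was lost without wild-type brain 1 or 2 or wild-type muscle 3 or 4.

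Rora probe sets disagreed between the tissues too. Its brightest probe set was at -0.43 (adjusted p = 0.0694). The probe set 1436325_at read 7.55, 7.91, 8.88 and 8.72 in brain and 10.39, 9.93, 10.33 and 10.44 in muscle, 4.02-fold lower in brain (adjusted p = 0.000116). The dim 1441085_at was 2.52-fold higher in brain (adjusted p = 5.69e-06), and both kept their call and direction under both scalings. Rorb was 4.24 higher in brain. Of the 10 loop genes, 5 were called higher and 2 lower in brain, among them Npas2 at 3.93, Cry2 at 1.54, Clock at 1.06 and Arntl at 0.70, the last of which was at -0.11 after quantile normalization. Of the other lists, 2 of 8 output genes were called higher and 4 lower, and 3 of 4 kinase and turnover genes higher. Of 8 glucocorticoid-responsive genes, 3 were called higher and 3 lower, and of 11 immediate early genes, 8 higher and 2 lower. All these counts, loop genes included, are as deposited, beside 53.5% of all probe sets called higher and 15.4% lower.

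**Figure D5:**
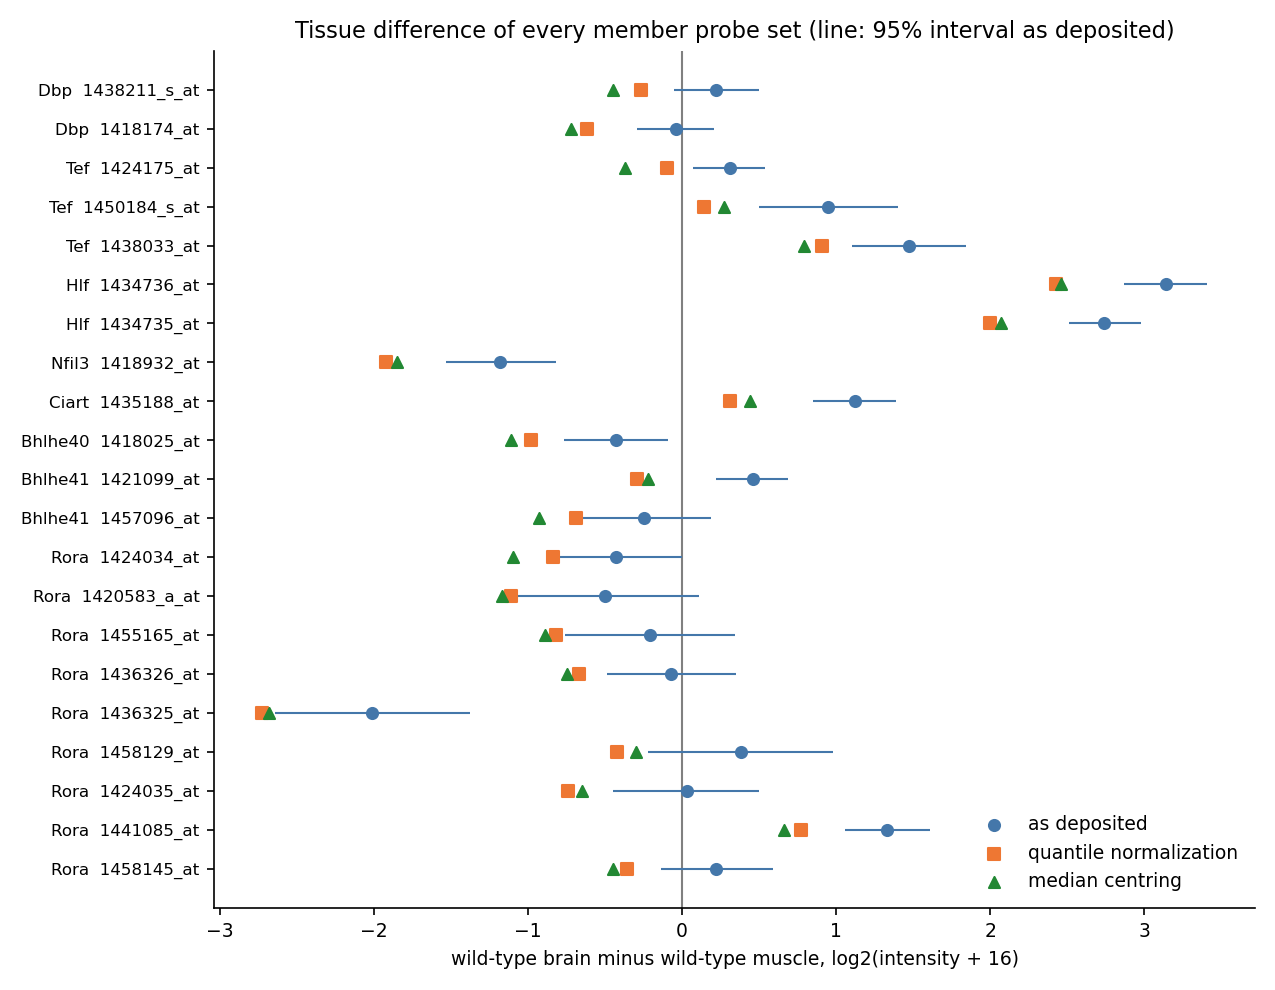
Wild-type brain minus wild-type muscle on the log2(intensity + 16) scale for each of the 21 probe sets, as deposited (circles, with 95% interval), after quantile normalization (squares) and after median centring (triangles). Hlf lies between 2.00 and 3.14 and Nfil3 between -1.92 and -1.18 over the 3 scalings, while Dbp 1438211_s_at, Tef 1424175_at, Bhlhe41 1421099_at and the Rora probe sets 1458129_at, 1424035_at and 1458145_at change sign.

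Over the 4 groups the levels of Dbp, as deposited, ran from 11.44 ± 0.20 (SD) in PWS-IC del brain, through 11.40 ± 0.18 in wild-type brain and 11.18 ± 0.15 in wild-type muscle, to 10.24 ± 0.37 in PWS-IC del muscle. The first 3 groups overlapped and PWS-IC del muscle lay below them all. For Ciart the order was wild-type brain (8.57), PWS-IC del brain (8.46), wild-type muscle (7.45) and PWS-IC del muscle (6.69), with overlap only between the brain groups. Nfil3 had the opposite order, from PWS-IC del muscle (9.30) and wild-type muscle (8.73) down to PWS-IC del brain (7.84) and wild-type brain (7.55), with the tissues apart.

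As a description of which genes had the most similar profile, the Pearson correlation over the 7 arrays of a tissue was taken with each gene at or above the median level, 9096 genes for Dbp. The 7 arrays hold both genotypes, so a gap between the genotypes raises the correlation of any 2 genes that share it. Muscle Dbp was closest to BC049762 (0.959), Scai (0.953), Fgfr1op2 (0.951), 1700037C18Rik (0.951) and Trak2 (0.95), and within genotypes these values were 0.705 to 0.895. Muscle Ciart was closest to Prep (0.98), Slc25a45 (0.972), Ndn (0.971), Grb14 (0.969) and Cyfip2 (0.968). Ndn belongs to the imprinted domain and was itself lower in every mutant array of both tissues. In brain, Dbp was closest to Cpsf4 (0.932), Sulf1, Car12, Igfbp2 and Sgk1 (0.866), and Ciart to Tfrc (0.923), Fam3a, Mitf, Neu1 and Cpne9 (0.802). The 5 closest genes of Dbp in muscle and in brain had no gene in common, and none of the 20 was a gene of the clock loop. Only the highest correlations were ranked, so a gene with the opposite profile could not appear. Lists this short, from 7 arrays, cannot show whether a member follows the loop.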

How the data were processed

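The authors deposited 1 linear intensity per probe set and array, made with PLIER and Affymetrix Expression Console per the submitters' processing notes. How background and array scaling were handled is not given in the sources used here, and no detection calls were used. Trizol RNA was turned into biotin-labelled cRNA, per the labels. Here 64 control probe sets were left out and log2(intensity + 16) was fitted for the other 45037, with no filter, by lmFit and eBayes (limma 3.58.1, R 4.3.3). Genotype was fitted within each tissue (7 arrays), tissue over 8 wild-type arrays, and the interaction over 14. P-values are 2-sided with Benjamini-Hochberg adjustment over all probe sets, and calls are adjusted p under 0.05. With several probe sets a gene is represented by the one with the highest mean over all arrays. The scripts were tested on simulated data. The number of arrays limits the precision.

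Symbols came from the platform annotation, and 0 members differed from RefSeq. The members and gene lists (as measured: 10 core loop genes, Rorb, 4 kinase and turnover genes, 8 output genes, 8 glucocorticoid-responsive genes, 11 immediate early genes, and cell type markers) were chosen with earlier results of these data known. In muscle the 4 genes with the smallest p are named from the core loop, kinase and turnover, output, glucocorticoid-responsive and immediate early lists. In brain and between tissues this was done only for the core loop, with Rorb beside it. Other genes are named after their values were seen. Promoter sequences are RefSeq's.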

Additional observations from a re-analysis of the deposited data

How the results depend on the processing

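In muscle, 0 of 21 members were called as reported, and 1 with an intensity trend (Dbp), 1 with array weights (Ciart) and 1 with a joint fit of 14 arrays (Ciart). Between wild-type tissues 11 were called, 17 after quantile normalization, 18 after median centring, 6 with 1 probe set per gene and the filter on low values (8 members tested), and 9 to 13 when single arrays were left out. Among the tissue differences named, those with the opposite sign after quantile normalization were Dbp 1438211_s_at -0.27, Rora 1458129_at -0.42, Tef 1424175_at -0.10, Bhlhe41 1421099_at -0.29, Rora 1424035_at -0.74, Rora 1458145_at -0.36 and Arntl -0.11. After median centring they were Rora 1458129_at -0.30, Dbp 1438211_s_at -0.45, Tef 1424175_at -0.37, Bhlhe41 1421099_at -0.22, Rora 1424035_at -0.65 and Rora 1458145_at -0.45. Leaving out single arrays gave 0 called members in the other 3 comparisons. Under all alternatives tried, 14 of 21 probe sets kept their sign in muscle, 10 in brain, 11 between tissues and 15 in the interaction. A value that rounded to 0 was counted as a sign not kept.

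Calls over all probe sets in muscle, 29 as reported, were 57 at a pseudocount of 64, 48 with the filter, 16 with 1 probe set per gene, 78 with an intensity trend, 190 with array weights, 70 at a threshold of 0.1, and 15 to 22 without single arrays. In brain, 28 became 9 with 1 probe set per gene and 18 without wild-type 3 and PWS-IC del 2. Interaction calls, 29 as reported, were 19 at a pseudocount of 1 and with the block, and 12 with 1 probe set per gene. The replicate number as a block gave 11 calls over all probe sets in each of brain and muscle, and 0, 0, 11 and 0 called members in brain, muscle, tissue and interaction. Deviations of same-numbered arrays from their group means correlated at -0.31 to 0.01 in brain, 0 to 0.30 in muscle and 0 to 0.17 between tissues. Differently numbered arrays were not compared, so these values cannot show whether same-numbered samples were paired. Fits without wild-type brain 1 and 2, without wild-type brain 3 and PWS-IC del brain 2, and without wild-type brain 1 and 3 were chosen after seeing the data. Probe sets near the floor of 4 can show little decrease.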
